A study of Homo sapiens with 9 samples.

Results

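Kinetochore, centromere and spindle checkpoint genes were followed in MDA-MB-231, a human triple-negative breast cancer cell line, during and after a block of splicing. The group holds 38 genes of 60708 in the table, found by matching Ensembl gene IDs to symbols fixed for these complexes. All 38 were matched, and all 38 were among the 20812 genes that passed the filter on low counts. The 9 libraries came from cells given the vehicle DMSO (3 libraries), cells given 10 nM pladienolide B (PdB) for 16 h (3 libraries) and cells collected after 24 h of recovery from PdB (3 libraries). PdB, a macrolide, blocks SF3B1, a protein with which the spliceosome recognises the branch point of introns. Every group is the same cell line, so the values describe 1 tumour line. Nothing in the labels states whether replicates were grown separately, so the p-values cover the spread among these libraries, which could be technical.

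The kinetochore is the protein assembly that ties each chromosome to spindle microtubules. Its inner layer, the constitutive centromere-associated network (CCAN), sits on nucleosomes that carry the centromeric histone variant CENP-A. Its outer layer, made of the Knl1, Mis12 and Ndc80 complexes, grips the microtubule. Kinetochores without attachment feed the spindle checkpoint, which holds back the anaphase-promoting complex until all chromosomes are attached. The chromosomal passenger complex corrects wrong attachments, and the shugoshins guard cohesin at the centromere. Many of these genes are transcribed mainly in late S phase, G2 and mitosis, under factors that bind a promoter element called the cell cycle genes homology region (CHR). Dividing tumour lines carry high levels of them.

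Total counts per library lay between 56389689 and 67047079. Levels are given as CPM, the usual unit of counts scaled to a common library size, here with TMM factors, and changes as log2 with their SE. CPM is relative to the other genes of a library and is not an amount of RNA per cell. Counts per gene do not separate spliced from unspliced RNA. TMM factors lay between 1.02 and 1.03 in DMSO, 0.883 and 0.923 in PdB and 1.08 and 1.09 at recovery. The share of counts from mitochondrial genes was 5.21% ± 0.484 (SD, n = 3) in DMSO. It was 7.60% ± 0.866 under PdB and 8.12% ± 0.0866 in the recovery libraries. Markers of the line were present at levels that differed between the groups: mean VIM was 2871 CPM in DMSO, 2162 in PdB and 1094 at recovery, CD44 was 1038, 937 and 747 CPM, and KRT18 474, 325 and 509 CPM. The hormone receptor genes ESR1 and PGR were at most 0.0634 CPM in every library. GATA3, a luminal marker low in such lines, was present at 13.5 ± 0.92 CPM in DMSO, 45.9 ± 1.4 in PdB and 22.5 ± 1.1 at recovery, while ERBB2 went from 106 ± 3.7 to 51.7 ± 2.3 and 73.7 ± 0.96 CPM. Of 6 leukocyte markers, 5 had means of at most 0.759 CPM in every group. The exception was CD68, which many tumour cells also express. Summed over all 6, these markers gave 97.8 to 107 CPM in DMSO, 124 to 140.2 CPM in PdB and 83.4 to 87.2 CPM at recovery. All 3 endothelial markers had means of at most 1.01 CPM. The part of these shares and markers in the results was not tested. The median change of all genes tested was -0.11 for PdB against DMSO with TMM factors, -0.014 with RLE factors and 0.039 with upper-quartile factors. It was -0.31 with library totals. The change of a single gene is read against that level.

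In DMSO the level per kilobase of exon ranged from 2.09 CPM per kb in CENPP to 71.3 CPM per kb in ZWINT, with a median of 16.7. After ZWINT came AURKB at 46.5, BIRC5 at 42.1, CENPF at 41.7 and CDCA8 at 41.4 CPM per kb. The median over the 38 genes was 6.35 CPM per kb in PdB and 16.3 at recovery. In PdB the highest gene was BIRC5 at 56 CPM per kb, and at recovery it was CDCA8 at 70.4. Replicates were close: the coefficient of variation of CPM within a group had a median over the members of 4.63% in DMSO, 8.66% in PdB and 4.11% at recovery.

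PdB was compared with DMSO to see which of these genes differed at the end of 16 h of treatment. Most were lower: 30 of 38 fell, 4 rose and 4 did not pass the test, against 38.2% falling and 32.0% rising among all 20812 genes tested. The median log2 change was -1.35, beside -0.11 for all genes tested. The falls of 24 members were at least 2-fold, a size and direction reached by 22.2% of all genes. In 34 of the 38 the PdB and DMSO libraries did not overlap, which held for 72.5% of all genes. The deepest losses were in CENPE, BUB1B, SPC24, CENPI and BUB1, which kept between 6.78% and 12.5% of their DMSO level. The rises were in MIS12, BIRC5, CENPW and BUB3. Summed over the 38 genes, CPM went from 3214 ± 58.2 in DMSO to 1941 ± 40.4 in PdB and 3193 ± 55 at recovery (SD, n = 3). In RNA from whole cultures, fewer cells in G2 or mitosis and less RNA of these genes per cell cannot be told apart.

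Beside these, the markers of dividing cells moved in both directions. MKI67, the gene of the Ki-67 antigen, had 938 ± 101.7, 1072 ± 109.9 and 938 ± 20.2 CPM in DMSO, PdB and recovery, and it rose under PdB by 0.19 ± 0.070 (adjusted p = 0.021), a change that was -0.0011 with library totals. CDK1, the kinase that starts mitosis, also rose, by 0.44 ± 0.065. PLK1, CCNB1, MCM2, PCNA and TOP2A fell, with log2 changes of -0.75, -0.32, -1.31, -3.10 and -4.28. The part of cell cycle position in the changes of the kinetochore genes was not tested.

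The recovery libraries were set against DMSO to see which genes differed from it 24 h after the drug. They were also set against PdB to see how far each gene had moved. The sample titles give no time for the DMSO libraries, so recovery and time in culture cannot be told apart in these comparisons. From PdB to recovery 30 of 38 genes rose and 6 fell, against 34.6% rising and 31.5% falling among all genes tested, with a median change of 1.02 beside 0.062 for all genes. The libraries of these groups did not overlap in 36 of the 38, beside 70.5% of all genes. Against DMSO, 11 members were higher and 16 lower at recovery, and 11 did not pass the test. Of all genes tested, 30.7% were higher and 30.5% lower, so the members' share was close to the background on the upper side and above it on the lower side. Groups did not overlap in 30 of the 38, beside 70.4% of all genes. A deficit of at least 2-fold was called in 4 members (CENPI, CENPK, CENPM and CENPP), near the background of 11.8%. The split between higher and lower members depended on the scaling: 15 were higher and 14 lower with upper-quartile factors, beside 33.6% and 28.0% of all genes tested. Library totals gave 14 and 14, beside 33.3% and 28.0%, and RLE factors 14 and 15, beside 32.6% and 29%. The members' share of higher genes was thus near the background with each scaling, a little below it with TMM factors and a little above it with the others. Of the 30 genes that had fallen under PdB, 8 stood above DMSO at recovery, 8 could not be told from DMSO and 14 stood below it. The 8 above DMSO were CDCA8, CENPA, CENPN, MAD2L1, NDC80, SGO1, SGO2 and TTK. Of the 14 below, 12 had risen from their PdB level and CENPM fell further after the drug. CENPP was called lower than in PdB too, a call that ended without recovery replicate 2 (adjusted p = 0.068) and with library totals (0.28). Of all 7944 genes tested that fell under PdB, 1340 stood above DMSO at recovery. Those that could not be told from DMSO numbered 2051 with a rise from PdB and 356 without a call. Those below DMSO numbered 1951 with a rise from PdB, 1045 with a further fall and 1201 without a call.

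**Figure D1:**
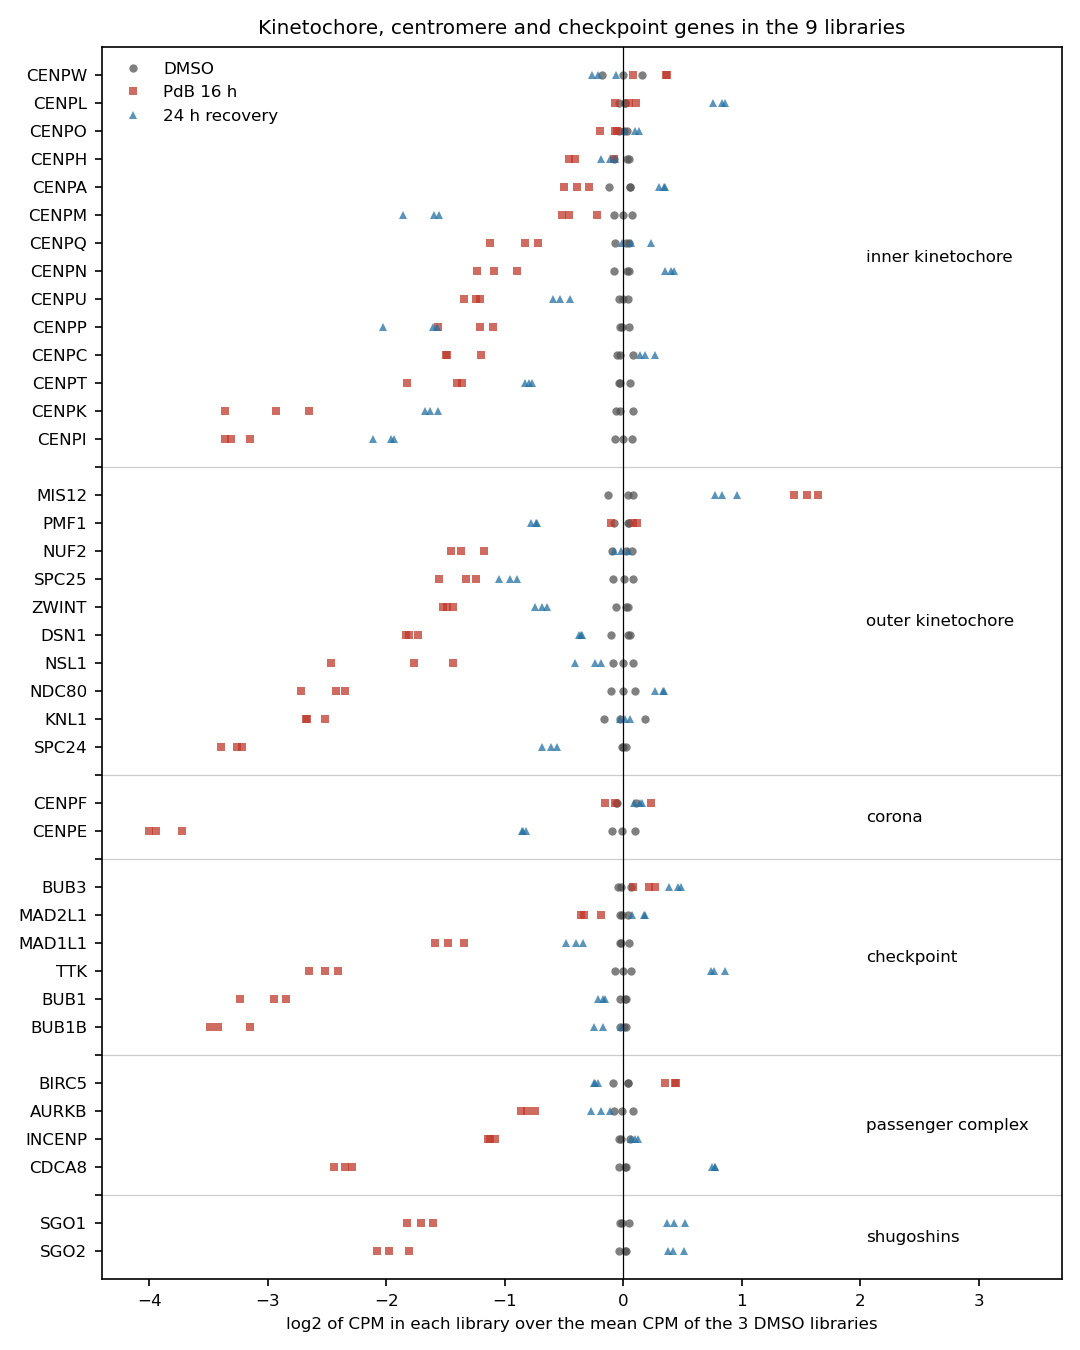
Each of the 38 genes is a row, and each symbol is 1 library, placed by the log2 of its CPM over the mean CPM of the 3 DMSO libraries (circles DMSO, squares PdB for 16 h, triangles 24 h recovery). Most squares lie left of 0, down to CENPE at a log2 change of -3.88. The triangles spread on both sides of 0, from CENPI at -2.0 to MIS12 at 0.86.

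In the inner kinetochore 11 of 14 genes fell under PdB, 1 rose and 2 did not pass, with a median log2 change of -0.97. This count and those of the other layers below stand beside 38.2% falling and 32.0% rising among all genes tested. CENPA encodes the centromeric histone variant itself (ENSG00000115163.15, chromosome 2, 26764289 to 26801067, plus strand) and gave 32.2, 36.4 and 36.5 CPM in DMSO, 28.7, 26.8 and 24.7 CPM in PdB and 44.4, 44.6 and 43 CPM at recovery. It changed by -0.39 ± 0.074 (adjusted p = 1.4e-04) under PdB and by 0.33 ± 0.073 (adjusted p = 7.2e-04) at recovery against DMSO. Its groups did not overlap, with the PdB libraries lowest and the recovery libraries highest. CENPC, the protein that joins CENP-A nucleosomes to the outer kinetochore, gave 25.3, 23.6 and 23.1 CPM in DMSO, 8.58, 8.51 and 10.5 CPM in PdB and 28.9, 26.5 and 27.3 CPM at recovery. It fell by a log2 change of -1.39 ± 0.094 under PdB and did not pass the test at recovery against DMSO (0.20 ± 0.089, adjusted p = 0.061), where all 3 recovery libraries lay above all 3 DMSO libraries. That missing call became a rise with RLE factors, upper-quartile factors, library totals, DESeq2 and only the 6 libraries compared (adjusted p = 0.023, 0.014, 0.020, 0.024 and 0.015).

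The 4 subunits of the CENP-H, I, K and M assembly, which holds the CCAN together, went apart. CENPI (ENSG00000102384.14, chromosome X, 101098218 to 101163681, plus strand) gave 64.2, 61 and 58.5 CPM in DMSO, 5.96, 6.89 and 6.19 CPM in PdB and 14.2, 16 and 15.7 CPM at recovery. It fell by a log2 change of -3.27 ± 0.087 (adjusted p = 6.1e-16) under PdB and was the lowest member relative to DMSO at recovery, at 25% (log2 change -2.0 ± 0.080, adjusted p = 4.0e-13). CENPK gave 31.4, 33.9 and 30.8 CPM in DMSO, 3.11, 5.10 and 4.21 CPM in PdB and 10.04, 10.8 and 10.3 CPM at recovery, and was at 12.9% of DMSO under PdB and 32.5% at recovery. Both lost most of their CPM and regained a minor part of it. CENPM behaved otherwise: it gave 29.4, 32.7 and 31 CPM in DMSO, 26.6, 21.7 and 22.6 CPM in PdB and 10.3, 10.5 and 8.54 CPM at recovery. Its fall under PdB was small (-0.39 ± 0.097, adjusted p = 0.0014), and the larger fall came after the drug, with a log2 change of -1.27 ± 0.10 (adjusted p = 2.3e-09) from PdB to recovery. CENPH, at 8.32 ± 0.38 CPM in DMSO, 6.73 ± 0.99 under PdB and 7.64 ± 0.31 at recovery, changed by -0.31 ± 0.13 (adjusted p = 0.041) under PdB. That call ended without DMSO replicate 1, DMSO replicate 3, PdB replicate 2 or PdB replicate 3 (adjusted p = 0.090, 0.090, 0.13 and 0.11) and with RLE factors, upper-quartile factors, DESeq2 or only the 6 libraries compared (adjusted p = 0.16, 0.29, 0.20 and 0.16). Its change from PdB to recovery did not pass the test (0.18 ± 0.13, adjusted p = 0.22) and passed as a rise without PdB replicate 1 (0.31, adjusted p = 0.045) and with library totals (0.45, adjusted p = 0.0048).

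CENPN, which reads the CENP-A nucleosome, and its partner CENPL also differed. CENPN gave 72.3, 71.3 and 66.4 CPM in DMSO, 29.8, 37.6 and 32.9 CPM in PdB and 92.7, 93.9 and 89.3 CPM at recovery. It was the lowest in PdB and the highest at recovery, with log2 changes against DMSO of -1.07 ± 0.073 and 0.39 ± 0.071. CENPL gave 33.3, 32.2 and 33.3 CPM in DMSO, 34, 35.5 and 31.4 CPM in PdB and 59.6, 58.5 and 55.5 CPM at recovery. The PdB libraries overlapped those of DMSO (0.029 ± 0.066, adjusted p = 0.71), with a direction that turned with library totals (-0.17, adjusted p = 0.022) and a rise called with upper-quartile factors (0.18, adjusted p = 0.020), and all recovery libraries lay above both (0.81 ± 0.065 against DMSO, adjusted p = 3.5e-09). In the CENP-O, P, Q and U group, to which PLK1 is recruited through CENP-U, CENPU gave 85.4 ± 2.2 CPM in DMSO, 35.5 ± 1.7 under PdB and 59.3 ± 3.0 at recovery, and CENPQ gave 20.2 ± 0.89 CPM in DMSO, 11 ± 1.6 under PdB and 21.6 ± 1.9 at recovery. CENPU was still 69.4% of DMSO at recovery, while CENPQ could not be told from DMSO (0.096 ± 0.10, adjusted p = 0.44). CENPO gave 81 ± 2.0 CPM in DMSO, 75.2 ± 4.1 under PdB and 85.7 ± 3.8 at recovery and did not pass the test against DMSO under PdB (-0.11 ± 0.057, adjusted p = 0.11), but fell with library totals (-0.30, adjusted p = 1.4e-04). CENPP gave 20.1, 21.2 and 20.3 CPM in DMSO, 9.57, 8.85 and 6.94 CPM in PdB and 6.91, 5.02 and 6.74 CPM at recovery, so that its lowest libraries came after the drug. The call from PdB to recovery for CENPP (-0.44 ± 0.14, adjusted p = 0.0082) ended without recovery replicate 2 (-0.30, adjusted p = 0.068) and with library totals (-0.17, adjusted p = 0.28). Exons of IPPK on the other strand cover 38% of the exon bases of CENPP, and exons of ADCY3 cover 27% of those of CENPO. The use of strand in counting is not given in the sources used here, so both values are uncertain.

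CENP-T and CENP-W form a histone-fold pair that binds DNA and, through CENP-T, the Ndc80 complex. CENPT gave 43.6, 43.3 and 46.2 CPM in DMSO, 17.3, 16.8 and 12.5 CPM in PdB and 24.9, 26 and 25.5 CPM at recovery, and fell by a log2 change of -1.51 ± 0.097 (adjusted p = 8.6e-11) under PdB. It reached 57.4% of DMSO at recovery. CENPW gave 16.4, 18.6 and 20.7 CPM in DMSO, 23.9, 23.8 and 19.6 CPM in PdB and 16, 17.8 and 15.5 CPM at recovery. Its PdB and DMSO libraries overlapped, with PdB replicate 3 below DMSO replicate 3. Its rise (0.28 ± 0.10, adjusted p = 0.024) ended without DMSO replicate 1, DMSO replicate 2, PdB replicate 1 or PdB replicate 2 (adjusted p = 0.15, 0.065, 0.094 and 0.092) and with library totals (0.51).

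In the outer kinetochore 8 of 10 genes fell under PdB, 1 rose and 1 did not pass, with a median log2 change of -1.64. The Ndc80 complex is a rod of 4 subunits in equal amounts, with NDC80 and NUF2 at the microtubule end and SPC24 and SPC25 at the inner end. NDC80 (ENSG00000080986.13, chromosome 18, 2571511 to 2616635, plus strand) gave 58.6, 54.5 and 62.9 CPM in DMSO, 8.90, 11.5 and 11 CPM in PdB and 74, 74.3 and 70.6 CPM at recovery. SPC24 gave 50.1, 49.9 and 51 CPM in DMSO, 5.26, 4.80 and 5.42 CPM in PdB and 31.2, 34.1 and 32.9 CPM at recovery. Both fell far below DMSO, to 17.8% and 10.2%, and came back to different levels, 124% and 65% of DMSO. NUF2 gave 72.3, 70.04 and 64.5 CPM in DMSO, 26.6, 30.5 and 25.1 CPM in PdB and 70.7, 68.1 and 65.4 CPM at recovery. SPC25 gave 23.3, 24.5 and 21.8 CPM in DMSO, 9.22, 7.89 and 9.78 CPM in PdB and 12.5, 11.2 and 11.9 CPM at recovery. Both kept more of their DMSO level under PdB, 39.8% and 38.7%, but only NUF2 returned to the range of the DMSO libraries, while SPC25 rose to 51.2%. Per kilobase of exon, NDC80, NUF2, SPC24 and SPC25 stood at 16.3, 20.5, 17.7 and 12.6 CPM per kb in DMSO, and at 2.91, 8.15, 1.82 and 4.87 in PdB. The levels of the 4 subunits were thus nearer to each other before treatment than during it.

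The Mis12 complex, which bridges inner and outer kinetochore, held the largest rise of the group. MIS12 (ENSG00000167842.16, chromosome 17, 5486285 to 5490814, plus strand) gave 31, 31.9 and 27.6 CPM in DMSO, 88.1, 94.4 and 81.6 CPM in PdB and 58.5, 53.6 and 51.6 CPM at recovery. All PdB libraries lay above all recovery libraries, and these above all DMSO libraries, with log2 changes against DMSO of 1.55 ± 0.074 (adjusted p = 1.2e-12) under PdB and 0.86 ± 0.073 (adjusted p = 8.7e-09) at recovery. Its partner DSN1 gave 62, 62.8 and 56.2 CPM in DMSO, 18.1, 16.9 and 17.3 CPM in PdB and 47.1, 47.3 and 46.5 CPM at recovery, and fell by 1.79 ± 0.067 on the log2 scale under PdB. NSL1, the third subunit, gave 18.1, 19.2 and 20.3 CPM in DMSO, 3.49, 7.11 and 5.67 CPM in PdB and 14.5, 16.3 and 16.8 CPM at recovery. Its PdB libraries varied most of all members, with a coefficient of variation of 33.6%, but lay far below DMSO (-1.83 ± 0.17, adjusted p = 1.5e-08). PMF1, the fourth subunit, gave 45, 49.2 and 48.9 CPM in DMSO, 51.5, 44.5 and 50.6 CPM in PdB and 28.6, 27.8 and 28.8 CPM at recovery. The PdB and DMSO libraries of PMF1 overlapped (0.035 ± 0.069, adjusted p = 0.67, a rise of 0.19 with adjusted p = 0.023 with upper-quartile factors), and the recovery libraries were lower than both (-0.75 ± 0.070 against DMSO, adjusted p = 2.8e-08). Exons of the PMF1-BGLAP readthrough gene, on the same strand, share 23.3% of the exon bases of PMF1, so the count of PMF1 is uncertain. KNL1, the scaffold on which the checkpoint proteins dock, gave 99.5, 86.1 and 78.3 CPM in DMSO, 13.8, 15.3 and 13.8 CPM in PdB and 91.6, 89.1 and 86.2 CPM at recovery. It fell by a log2 change of -2.62 ± 0.082 (adjusted p = 3.8e-15) and at recovery could not be told from DMSO (0.016 ± 0.074, adjusted p = 0.87). ZWINT, its binding partner, gave 169.5 ± 6.6 CPM in DMSO, 60.7 ± 1.7 under PdB and 105 ± 3.7 at recovery, and was still 61.9% of DMSO at recovery.

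CENP-E and CENP-F are large coiled-coil proteins of the outermost layer, the fibrous corona, and their genes answered PdB very differently. CENPE, the kinesin that carries chromosomes to the spindle equator (ENSG00000138778.13, chromosome 4, 103105806 to 103198409, minus strand), gave 158, 146 and 138 CPM in DMSO, 9.24, 9.61 and 11.2 CPM in PdB and 83.5, 82.1 and 81.4 CPM at recovery. This was the largest fall of the 38, with a log2 change of -3.88 ± 0.076 (adjusted p = 2.3e-17) or 14.8-fold lower. At recovery CENPE stood at 55.8% of DMSO, all its libraries between those of PdB and DMSO. CENPF (ENSG00000117724.13, chromosome 1, 214603195 to 214664588, plus strand) gave 525, 469 and 467 CPM in DMSO, 437, 463 and 574 CPM in PdB and 537, 517 and 545 CPM at recovery. The 3 groups overlapped, and neither the change under PdB (0.012 ± 0.075, adjusted p = 0.90) nor that at recovery against DMSO (0.13 ± 0.075, adjusted p = 0.15) passed the test. PdB replicate 3 was the highest CENPF library, and without it CENPF rose from PdB to recovery (0.25, adjusted p = 3.1e-04), as it did without a filter (0.14, adjusted p = 0.015) and with library totals (0.38, adjusted p = 7.9e-04). At recovery against DMSO, a rise of CENPF was called with RLE factors, upper-quartile factors, DESeq2 and only the 6 libraries compared (adjusted p = 0.049, 0.032, 0.043 and 0.020).

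Of the 6 checkpoint genes 5 fell under PdB and 1 rose. BUB1B, which encodes BUBR1, a subunit of the mitotic checkpoint complex (ENSG00000156970.13, chromosome 15, 40161023 to 40221136, plus strand), gave 102, 103 and 99.6 CPM in DMSO, 9.03, 11.4 and 9.45 CPM in PdB and 99.9, 90.3 and 85.6 CPM at recovery. It fell by a log2 change of -3.35 ± 0.084 (adjusted p = 2.7e-16), to 9.83% of DMSO. BUB1, a kinase that docks on KNL1 and recruits shugoshin, gave 199, 207 and 205 CPM in DMSO, 21.6, 26.5 and 28.4 CPM in PdB and 181, 175 and 183 CPM at recovery. TTK, the kinase MPS1 that starts checkpoint signalling, gave 50.7, 53 and 48.3 CPM in DMSO, 8.05, 9.57 and 8.84 CPM in PdB and 91.8, 86.1 and 84.8 CPM at recovery. The PdB libraries were lowest in all of these, but the levels at recovery parted: TTK was above DMSO by 0.79 ± 0.067 (adjusted p = 7.2e-09), while BUB1 and BUB1B lay at 88.2% and 90.6% of it. The small deficit of BUB1 (-0.18 ± 0.068, adjusted p = 0.028) was not called without DMSO replicate 2, DMSO replicate 3, recovery replicate 1 or recovery replicate 2 (adjusted p = 0.076, 0.061, 0.068 and 0.10) or with the 3 other scalings and DESeq2 (0.091 to 0.22). That of BUB1B (-0.14 ± 0.072, adjusted p = 0.099) became a call without recovery replicate 1 (-0.20, adjusted p = 0.042), without a filter (0.041) and with only the 6 libraries compared (0.034).

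The other 3 checkpoint genes kept more of their DMSO level under PdB. BUB3, a WD-repeat protein that carries BUB1 and BUBR1 to the kinetochore, gave 262, 279 and 257 CPM in DMSO, 309, 320.2 and 282 CPM in PdB and 365, 373 and 346 CPM at recovery. It was called higher in PdB than in DMSO (0.19 ± 0.053, adjusted p = 0.0037), a direction that turned to -0.0062 with library totals (adjusted p = 0.91), and it was higher again at recovery (0.44 ± 0.053 against DMSO, adjusted p = 7.7e-07). MAD2L1, which encodes MAD2, the protein that binds CDC20, gave 97.1, 101 and 95.6 CPM in DMSO, 77.7, 85.9 and 76.1 CPM in PdB and 110.1, 111 and 103 CPM at recovery. Its change under PdB was -0.29 ± 0.057 (adjusted p = 1.8e-04). Its rise at recovery against DMSO (0.14 ± 0.057, adjusted p = 0.035) was lost without DMSO replicate 1, DMSO replicate 3, recovery replicate 1 or recovery replicate 2 (adjusted p = 0.088, 0.12, 0.11 and 0.14) and without a filter (0.076). MAD1L1, which encodes MAD1, the receptor of MAD2 at the kinetochore, gave 57.2 ± 1.6 CPM in DMSO, 20.7 ± 1.8 under PdB and 43.1 ± 2.2 at recovery. It changed by -1.47 ± 0.073 (adjusted p = 2.3e-12) under PdB and remained lower at recovery (-0.41 ± 0.070 against DMSO, adjusted p = 5.9e-05).

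In the chromosomal passenger complex 3 of 4 genes fell under PdB and 1 rose. CDCA8, which encodes borealin (ENSG00000134690.11, chromosome 1, 37692418 to 37709719, plus strand), gave 99.8, 103 and 104 CPM in DMSO, 20.1, 18.8 and 21 CPM in PdB and 175, 175 and 172 CPM at recovery. It fell to 19.5% of DMSO and stood at 170.0% at recovery, with no overlap between any of the groups (log2 changes -2.36 ± 0.056, adjusted p = 1.4e-16 and 0.77 ± 0.051, adjusted p = 3.0e-10). BIRC5, which encodes survivin, an inhibitor of apoptosis protein that forms a bundle with borealin and INCENP (ENSG00000089685.15, chromosome 17, 78214186 to 78225636, plus strand), gave 151, 165 and 166 CPM in DMSO, 218, 218 and 205 CPM in PdB and 136, 139 and 136 CPM at recovery. It moved the other way in both steps, above DMSO in PdB (0.41 ± 0.050, adjusted p = 6.0e-07) and below DMSO at recovery (-0.23 ± 0.050, adjusted p = 4.9e-04). INCENP, the scaffold, gave 166, 157 and 158 CPM in DMSO, 75.5, 72.6 and 73.6 CPM in PdB and 172, 175 and 168 CPM at recovery. AURKB, the kinase of the complex, gave 104, 110.4 and 98.7 CPM in DMSO, 57.4, 59.3 and 62.3 CPM in PdB and 91.5, 96.3 and 86.1 CPM at recovery. INCENP fell by a log2 change of -1.12 ± 0.048 and AURKB by -0.80 ± 0.060, and both rose after the drug. At recovery INCENP did not pass the test against DMSO (0.098 ± 0.047, adjusted p = 0.079), but rose without DMSO replicate 1 (adjusted p = 0.049), with the 3 other scalings, with DESeq2 and with only the 6 libraries compared (0.0036 to 0.047). AURKB was lower (-0.19 ± 0.059, adjusted p = 0.0095), a call lost without DMSO replicate 2 (adjusted p = 0.066), without recovery replicate 3 (0.066), with upper-quartile factors (0.11), with library totals (0.097) and with DESeq2 (0.054).

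The shugoshins moved together. SGO1, which protects centromeric cohesin in mitosis, gave 31, 31.3 and 32.6 CPM in DMSO, 10.4, 8.93 and 9.66 CPM in PdB and 42.6, 45.2 and 40.8 CPM at recovery. SGO2, its relative, gave 60.7, 62.8 and 63 CPM in DMSO, 15.8, 17.7 and 14.8 CPM in PdB and 80.7, 88.9 and 83.2 CPM at recovery. In both genes every PdB library was below every DMSO library and every recovery library above it. The log2 changes were -1.71 ± 0.080 and -1.95 ± 0.071 under PdB, and 0.44 ± 0.075 (adjusted p = 5.1e-05) and 0.44 ± 0.066 (adjusted p = 1.2e-05) at recovery. Exons of SGO1-AS1 on the other strand cover 17.7% of the exon bases of SGO1, so reads of the pair cannot be told apart without strand.

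**Figure D2:**
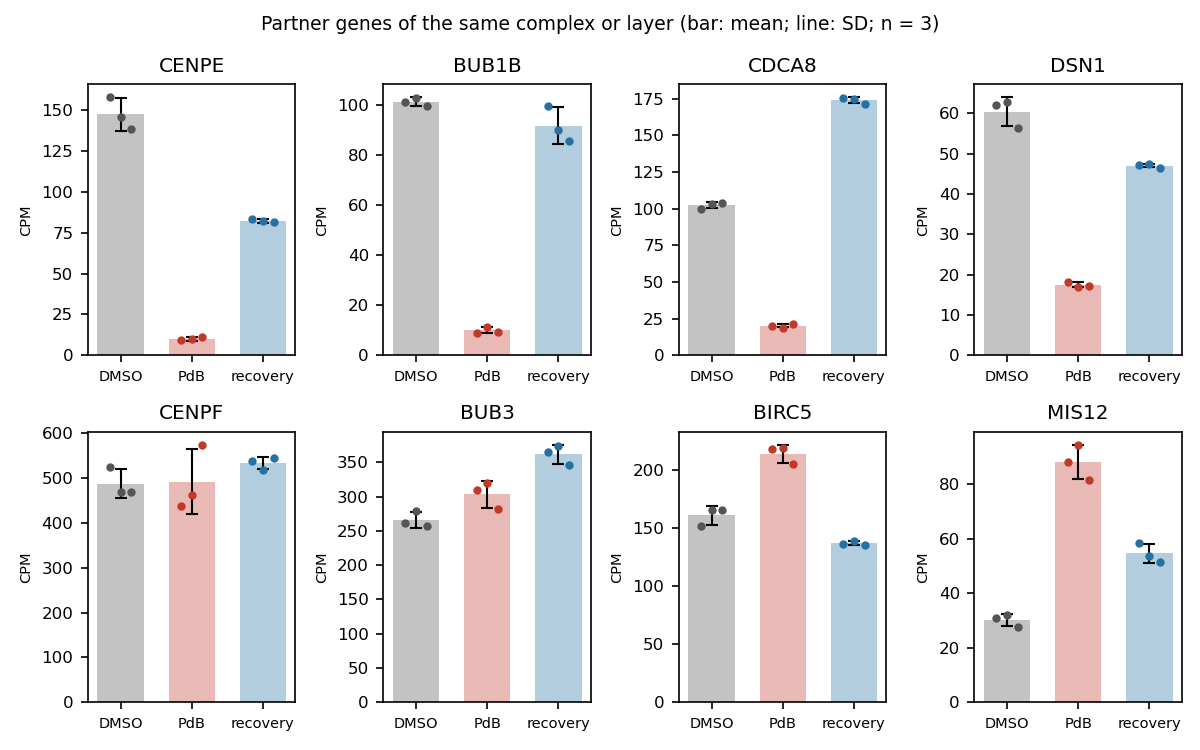
CPM of 4 pairs of genes from the same complex or layer in DMSO, PdB and recovery; bars are means, lines are SD and points are the 3 libraries of each group. The upper row holds genes that fell under PdB (CENPE, BUB1B, CDCA8 and DSN1) and the lower row a partner of each that did not fall (CENPF, BUB3, BIRC5 and MIS12), although the rise of BUB3 turned to a log2 change of -0.0062 with library totals.

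Counts of some other members may also hold reads of neighbours, since exons on the other strand cover 12.8% of the exon bases of CENPN (CMC2), 11.7% of CENPU (PRIMPOL), 10.8% of CENPT (TSNAXIP1) and 9.53% of MIS12 (DERL2). On the same strand, BUB1B shares 10.2% of its exon bases with the BUB1B-PAK6 readthrough gene. CENPC, CENPI, CENPU, BUB1, BUB3 and SGO1 have annotated pseudogenes, to which some of their reads could have been assigned.

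Subunits of one complex therefore lay far apart as a percentage of their DMSO level. Under PdB the highest subunit over the lowest was a ratio of 10.4 in the Mis12 complex, 6.80 in the passenger complex, 7.80 in the CENP-H, I, K and M assembly and 3.88 in the Ndc80 complex. At recovery these ratios were 3.04, 2.0, 3.68 and 2.43, lower in each of the 4. In the CENP-O, P, Q and U group the ratio was 2.25 under PdB (CENPO over CENPP) and 3.52 at recovery (CENPQ over CENPP). Both rest on CENPP, whose value, like that of CENPO, is uncertain because of exons on the other strand.

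Gene structure differed widely among the members. The longest coding transcript of MIS12 has 2 introns and its coding sequence lies in 1 exon, while CENPE has 48 introns. Over the 38 genes, intron number and log2 change under PdB had a Spearman rho of -0.63, and the genomic span of the gene had a rho of -0.49. The level in DMSO had a rho of -0.11. These are descriptions across genes measured in the same libraries, and intron number, span and length go together. The 5 members with more than 20 introns (CENPE, KNL1, BUB1, BUB1B and TTK) had a median log2 change of -3.0, beside -0.91 for the 1667 coding genes tested with more than 20 introns. The 15 members with 6 to 10 introns had a median of -1.28, beside -0.20 for 3777 coding genes, and the 9 with 11 to 20 a median of -1.39, beside -0.59 for 3507. The 7 members with 3 to 5 introns had a median of -0.39, beside 0.13 for 3225. Only the 2 members with 0 to 2 introns, MIS12 and CENPW, had a median above that of the coding genes, 0.91 beside 0.42 for 2050. Genes stood off this order in both directions: SPC24 with 4 introns fell by a log2 change of -3.29, and CENPF with 19 did not pass the test. At recovery against DMSO the rho of intron number over the members was -0.045.

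**Figure D3:**
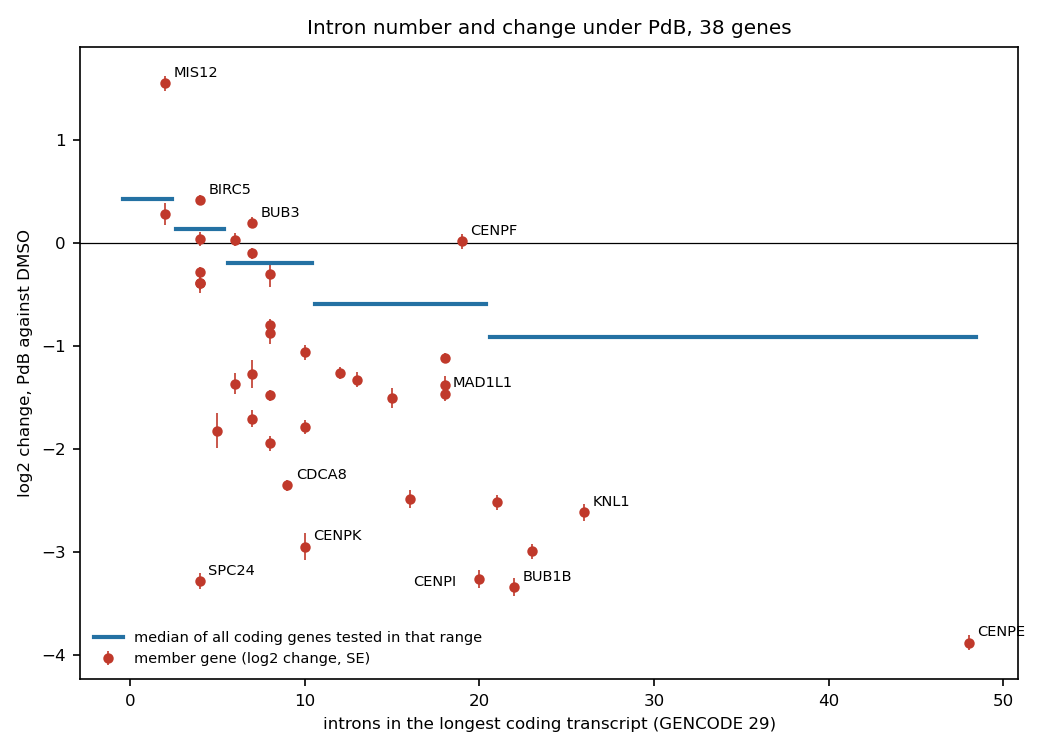
Log2 change of each of the 38 genes under PdB against DMSO (points, lines are SE) over the number of introns in its longest coding transcript; horizontal lines are the medians of all coding genes tested with that number of introns. The points go down from MIS12 with 2 introns at 1.55 to CENPE with 48 introns at -3.88, with SPC24 and CENPF off the trend.

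Since most members moved together, their promoters were searched for the CHR letters TTTGAA and TTCGAA on both strands, in windows from 250 bases before to 50 bases after each RefSeq start (GRCh38.p14). A promoter was found for 31 of the 38 genes, all but CENPH, CENPL, CENPM, KNL1, TTK, BUB3 and BIRC5. Of these 31, 16 held one of the motifs (51.6%), beside 19.5% of the 27305 genes with a promoter in the same table. The 27305 include genes that were not tested here, while all 31 members were tested. The sequences below run 5′ to 3′ on the strand of the gene, from 70 bases before to 10 bases after the start, with the CHR letters in capitals. They are shown because the first 4 fell under PdB, rose after it and hold the motif near the start, while CENPE fell most and has no match, and MIS12 rose and has no match (the first of its 2 listed starts is given).
BUB1B (chr15:40160999-40161078, plus strand): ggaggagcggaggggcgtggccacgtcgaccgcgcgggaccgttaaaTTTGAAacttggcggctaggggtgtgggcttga
CDCA8 (chr1:37692446-37692525, plus strand): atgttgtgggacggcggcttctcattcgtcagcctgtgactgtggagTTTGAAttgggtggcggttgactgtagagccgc
SGO1 (chr3:20186197-20186276, minus strand): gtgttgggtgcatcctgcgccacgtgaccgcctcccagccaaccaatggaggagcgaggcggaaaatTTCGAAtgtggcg
NDC80 (chr18:2571487-2571566, plus strand): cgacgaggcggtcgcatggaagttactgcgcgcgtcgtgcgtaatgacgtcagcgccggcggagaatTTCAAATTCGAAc
CENPE (chr4:103198334-103198413, minus strand): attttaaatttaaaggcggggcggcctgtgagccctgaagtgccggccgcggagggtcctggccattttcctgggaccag
MIS12 (chr17:5486304-5486383, plus strand): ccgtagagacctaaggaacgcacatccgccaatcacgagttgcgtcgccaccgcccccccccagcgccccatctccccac
In BUB1B and CDCA8 the motif begins 23 bases before the start, in SGO1 3 bases before it, and NDC80 holds TTTGAA on the other strand next to TTCGAA, which reads the same on both strands. Under PdB, 13 of the 16 genes with a match and 13 of the 15 without one fell, with median log2 changes of -1.35 and -1.51. At recovery against DMSO, 6 of the 16 with a match were higher and 3 lower, while of the 15 without a match 2 were higher and 11 lower, with medians of 0.11 and -0.53. With the other scalings the genes with a match that were higher numbered 9 (RLE factors and library totals) or 10 (upper-quartile factors), with 2 lower in each, and those without a match 2 higher and 10 to 11 lower. Among all genes tested 30.7% were higher and 30.5% lower with TMM factors. Genes outside the group were not split by a match, so whether this split is particular to the members was not tested. The CCAAT box, searched as CCAAT on both strands, stood in 21 of the 31 (67.7%), beside 39.7% of the same 27305 genes. At recovery 7 of these 21 were higher and 9 lower, and of the 10 without it 1 was higher and 5 lower, with medians of 0.096 and -0.32. With RLE factors, upper-quartile factors and library totals, 10, 10 and 9 of the 21 were higher and 8, 7 and 7 lower. Of the 10 without it, 1, 2 and 2 were higher with these scalings and 5 lower with each. A match is a run of letters and not a binding site, and a gene without one only lacks these letters in this window.

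The genes that load CENP-A, partner the corona, receive the checkpoint signal or drive G2 and mitotic transcription were described from lists that do not overlap the 38. Among all genes tested 38.2% fell and 32.0% rose under PdB, and 30.5% were below and 30.7% above DMSO at recovery. All 6 genes of CENP-A loading fell under PdB, with a median log2 change of -1.60, most of all OIP5, a subunit of the Mis18 complex that licenses loading, from 13.4 ± 1.3 to 0.794 ± 0.46 CPM (-4.08 ± 0.26, adjusted p = 7.9e-11). At recovery 4 of them were below DMSO and 1 above, HJURP, the CENP-A chaperone, at 0.22 ± 0.055. Of 11 partners of the corona and the Ska complex, 9 fell and 1 rose under PdB (median -1.29), with KNTC1, the ROD subunit that brings dynein to kinetochores, at -2.74 ± 0.086 and NDEL1, a dynein regulator, at 0.37 ± 0.059. At recovery 9 of the 11 were below DMSO, with ZWILCH, another subunit of the ROD complex, lowest at -1.37 ± 0.093, and SKA1, a microtubule-binding subunit of the Ska complex, was above it at 0.31 ± 0.11. The members themselves had 16 of 38 below DMSO at that time.

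Of 23 genes of the anaphase-promoting complex, its co-activators and checkpoint silencing, 16 fell and 6 rose under PdB, with a median of -0.45. CDC20, the co-activator that the checkpoint sequesters, gave 240.2, 276 and 262 CPM in DMSO, 25.9, 27.2 and 25.3 CPM in PdB and 316, 309.6 and 289 CPM at recovery. It fell by 3.31 on the log2 scale and was back above DMSO at recovery (0.23 ± 0.055, adjusted p = 0.0013). ANAPC2, the cullin subunit, rose by 1.44 ± 0.072 under PdB. MAD2L1BP, which encodes p31comet, an adaptor in checkpoint silencing, was the highest of this list at recovery (1.14 ± 0.074 against DMSO), and ANAPC4 the lowest (-1.42 ± 0.089). Of 10 genes of the DREAM and MuvB complexes and their G2 and mitotic partners, 9 fell and 1 did not pass under PdB (median -0.90), with RBL1, the pocket protein p107, lowest at -2.46 ± 0.068. At recovery 6 of the 10 were below DMSO and 2 above, from TFDP1, the partner of E2F proteins, at -1.07 ± 0.064 to LIN9, a MuvB subunit, at 0.50 ± 0.098. Of 5 other centromere genes, 3 rose and 2 fell under PdB, from ITGB3BP, which encodes CENP-R, at -0.98 ± 0.14 to CENPX, a partner of CENP-T and CENP-W, at 0.60 ± 0.076. CENPB, whose protein binds alpha satellite DNA, was the lowest of these at recovery (-1.44 ± 0.055 against DMSO).

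**Figure D4:**
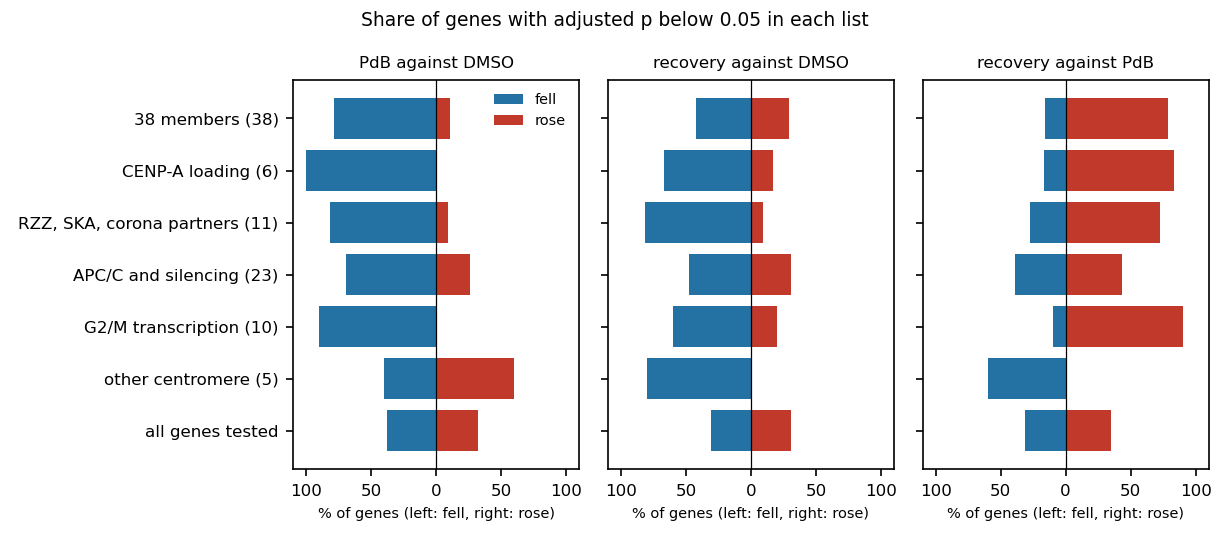
Percentage of genes with an adjusted p below 0.05 that fell (left of 0) or rose (right of 0) in the 3 comparisons, for the 38 members, 5 related lists (genes tested in parentheses) and all 20812 genes tested. Under PdB 30 of the 38 members fell, beside 38.2% of all genes, and from PdB to recovery 30 of 38 rose, beside 34.6%.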

How the data were processed

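The authors deposited 1 table of whole-number read counts per gene for the 9 libraries of polyadenylated RNA, not normalised. The tools named, per the submitters' processing notes, are featureCounts 2.0.3, STAR 2.7.9a and fastp 0.23.2, with Picard, DESeq2 1.30.0 and the hg38 build. Not given in the sources used here are their settings, the annotation, whether strand was used and how duplicates were treated. Symbols were found for 60463 of 60708 gene IDs. Coordinates, exons and introns came from GENCODE 29 (GRCh38).

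Counts were filtered with filterByExpr, scaled by TMM and tested by edgeR's quasi-likelihood test (edgeR 4.0.16, R 4.3.3) with all 9 libraries in 1 fit and Benjamini-Hochberg adjustment over 20812 genes at 0.05. The SE is the log2 change over the square root of its F value. CPM per kb uses the union of exons. The members, lists and tests were chosen with earlier results of these data known. All 38 members could be named, and of each other list the largest rise and fall per comparison. Markers of dividing cells could all be named. Results were recomputed with each library of the groups compared left out and with the replicate number as a block. They were also recomputed with only the 6 libraries of a comparison, against a 2-fold change and with DESeq2 1.42.0. Other runs used no filter, library totals, RLE factors or upper-quartile factors. The fit was also run on simulated counts in which few genes changed and all genes had the same spread. That run cannot speak to the choice of scaling. No pair of replicates agreed within counting noise (chi-square per degree of freedom 4.98 to 26.0), so none was taken for a repeated deposit. Figures were drawn with matplotlib 3.10.9.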

Additional observations from a re-analysis of the deposited data

How the results depend on the processing

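Counts of members called were within 1.5 times of those reported under every alternative run except library totals and the test against a 2-fold change. With library totals 2 members rose under PdB in place of 4. Against a 2-fold change, 1 member rose and 23 fell under PdB, beside 12.9% and 15.9% of all genes. At recovery against DMSO 0 rose (0 at an unadjusted p below 0.05 by the same edgeR test) and 4 fell, beside 7.44% and 6.51%. From PdB to recovery 18 rose and 1 fell, beside 13.4% and 8.02%. These counts are lower because that test asks for a larger change. Leaving out 1 library of the groups compared gave 29 to 30 falls and 3 to 4 rises under PdB. At recovery against DMSO it gave 14 to 16 falls and 10 to 11 rises, and from PdB to recovery 5 to 6 falls and 30 to 31 rises. Of 1482 values of single genes under the alternatives other than the 2-fold test, 1415 kept their side of the threshold and, where called, their direction. In 35 a call was lost and in 30 one was gained. In 2 the direction turned, both under PdB with library totals: CENPL at -0.17 and BUB3 at -0.0062. Only the scaling differed in that fit. The median change of all genes tested was -0.11 with TMM factors and -0.31 with library totals. With the replicate number as a block the counts were 4 rises and 30 falls, 11 and 16, and 30 and 6, as without it. Deviations of libraries with the same number had correlations of -0.0032 to 0.048, beside -0.061 to 0.026 for different numbers. Of the 9 libraries, 5 correlated best with their own number in both other groups. These correlations are small and the block left the counts unchanged, so no pairing was made by number. Whether libraries of the same number shared a batch was not tested. With 3 libraries per group, the calls under PdB of CENPH and CENPW, at -0.31 and 0.28, each ended in 4 of the 6 fits that left out 1 library.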
